A study of Homo sapiens with 4 samples.

Results

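The mRNAs of YBX1, the poly(A)-binding proteins and other proteins that coat cytoplasmic mRNA were followed from total into polysomal RNA in LN229 cells, a human glioblastoma line in long use. The genes were listed by name, as YBX1, PABPC1, PABPC4, G3BP1, G3BP2, SERBP1, LARP1 and FXR1, and each was read from its probe set of highest mean. Of these 8 genes, 6 had a probe set carrying their symbol alone, out of 7749 protein-coding genes in the table. PABPC1 was annotated only together with a microRNA gene on a shared probe set, and no probe set carried the symbol SERBP1 in the annotation used here. All 6 genes that were read passed the filter on low values (a 4-sample mean of 7.8 or more on the log2 scale), as did 3875 coding genes in all. The list was chosen by the measured polysomal/total differences in untreated and ATO cells, so those differences are given as a description.

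There were 4 groups with 1 sample each: untreated cells and cells given 5 µM ATO for 6 h, with total RNA and polysomal RNA from each state. The labels do not spell out ATO, which usually stands for arsenic trioxide. Both states were grown in the same serum-supplemented medium and lysed in the same hypotonic buffer with an agent that holds ribosomes on mRNA, and polysomes, mRNAs carrying several ribosomes, were then separated on a sucrose gradient. Technical triplicates were pooled into 1 value per sample, so the error of differences within a state could not be estimated, and no test was made.

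Proteins of this kind package mRNA into messenger ribonucleoprotein particles (mRNPs) and set whether it is stored, translated or degraded. Several of them bind their own mRNA: YBX1 protein binds the 3′ untranslated region of YBX1 mRNA, and PABPC1 protein binds an A-rich stretch at the 5′ end of PABPC1 mRNA, in both cases lowering translation. Arsenic compounds are a classical trigger of stress granules, the cytoplasmic mRNP assemblies that form around G3BP1 and G3BP2 when polysomes disassemble.

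For the ATO total sample the title was followed, although the source name given with it says polysomal. Its correlation over all 65528 probe sets was r = 0.991 with the untreated total sample and r = 0.987 with the ATO polysomal sample. Untranslated small nuclear RNAs and 7SK, read from 7 probe sets, stood at a median of -2.66 in ATO polysomal against ATO total RNA and at 0.03 in ATO total against untreated total RNA. The LN229 markers fixed for the cell line (NES, EGFR, FN1, CAV1, CAV2 and SPARC) all passed the filter, 6 of 6, against 1 of 4 measured neuron markers (GAD1), 0 of 5 immune and 0 of 3 epithelial markers. Values are the deposited log2 values, which reach 19.56 and so are not plain log2 scanner intensities, and a fold is a fold on that scale. Abundances of different genes cannot be ranked on this array, so differences were formed within each gene across samples. Ranks given below are ranks of those differences. Mean values over the samples describe signal level, not abundance. In bulk RNA, fewer cells carrying a transcript and less of it per cell cannot be told apart.

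The 5′ ends of 3 of the mRNAs are shown because LARP1 recognises mRNAs that start with a terminal oligopyrimidine (TOP) tract, a C followed by a run of C and T. Each line gives 30 bases before and 30 bases from the annotated RefSeq start (GRCh38.p14, + strand), with the first 5 transcribed bases in capitals. They are chr1:42682388-42682447 for YBX1, chr5:151771924-151771983 for G3BP1 and chr3:180912640-180912699 for FXR1.
YBX1: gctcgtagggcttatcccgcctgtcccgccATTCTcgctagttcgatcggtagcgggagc
G3BP1: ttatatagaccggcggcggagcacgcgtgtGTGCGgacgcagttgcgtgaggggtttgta
FXR1: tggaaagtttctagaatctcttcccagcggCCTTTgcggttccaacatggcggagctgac
The search was for a C at the annotated start followed by at least 4 bases that are each C or T, on the transcribed strand only. Of all 35116 annotated starts 4.07% had it, and of 85 starts of ribosomal protein genes, the main TOP class, 56.5% did. The YBX1 start and the G3BP1 start lacked it, as did all 5 listed starts of G3BP2 and all 4 of LARP1. The first of 2 listed FXR1 starts, 1 base apart, had it, and so did the SERBP1 start. PABPC1 and PABPC4 had no listed start. RefSeq starts can lie some bases from the start used in these cells, so these matches describe the annotation.

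YBX1, the cold shock domain protein that is a core component of cytoplasmic mRNPs, stood lower in polysomal than in total RNA in both states and was among the lowest coding genes. Its log2 values were 18.36 in untreated total, 18.37 in ATO total, 16.59 in untreated polysomal and 16.73 in ATO polysomal RNA. Both total samples were thus almost equal and both polysomal samples lay far below them. The polysomal value was 3.41-fold lower than total in untreated cells (-1.77) and 3.12-fold lower in ATO cells (-1.64). Of 3875 genes YBX1 ranked first from the bottom in both states, and the next lowest genes were KANSL1L in untreated cells (-1.50) and PALS2 in ATO cells (-1.61). YBX1 is read near the top of the scale, where 137 coding genes had a mean log2 value over 16. Those 137 genes had median differences of 0.14 (untreated) and 0.13 (ATO). After YBX1, the lowest of them were at -0.82 and -0.98. Whether the signal level bears on the YBX1 difference was not tested. With a smooth trend on level subtracted, YBX1 stood at -1.90 and -1.77. The first rank depends on the processing in ATO cells, where YBX1 ranked 2 after that subtraction and 3 with quantile normalization (-1.51), behind PALS2 among others. Averaged with the dim second YBX1 probe set described below, it stood at -0.82 and -1.06 and ranked 55 and 18.

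PABPC4, an inducible cytoplasmic poly(A)-binding protein that coats mRNA tails, was also lower in polysomal RNA in both states. Its log2 values were 12.95 in untreated total, 12.87 in ATO total, 11.76 in untreated polysomal and 11.69 in ATO polysomal RNA. The difference was -1.19 in untreated and -1.18 in ATO cells, 2.28-fold and 2.27-fold lower, and PABPC4 ranked 11 and 12 from the lowest of the 3875 genes. The drop from total to polysomal RNA was nearly the same size with and without ATO.

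The probe set annotated to both PABPC1, the main cytoplasmic poly(A)-binding protein, and the microRNA gene MIR7705 on chromosome 8 cannot be assigned to either gene and entered no count. It read 15.23 in untreated total, 15.33 in ATO total, 12.63 in untreated polysomal and 12.97 in ATO polysomal RNA. Its differences of -2.60 and -2.36 lay further below 0 than those of all 3875 coding genes.

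G3BP1 and G3BP2, paralogous RNA-binding proteins that nucleate stress granules, were modestly lower in polysomal RNA and almost identical to each other. G3BP1 read 14.80 in untreated total, 14.85 in ATO total, 14.38 in untreated polysomal and 14.33 in ATO polysomal RNA. G3BP2 read 15.16, 15.21, 14.75 and 14.64 in the same order. In each gene the polysomal samples were below both total samples. The differences were -0.42 in untreated and -0.52 in ATO cells for G3BP1 and -0.41 and -0.57 for G3BP2, none past 1.5-fold (0.585 on the log2 scale).

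LARP1, which binds the cap and the start of TOP mRNAs and represses them when mTOR is inactive, read 14.44 in untreated total, 14.51 in ATO total, 14.20 in untreated polysomal and 14.23 in ATO polysomal RNA. Its polysomal samples were slightly below its total samples, by -0.24 in untreated and -0.28 in ATO cells. FXR1, a paralog of the fragile X protein FMRP that associates with ribosomes, read 15.02 in untreated total, 14.97 in ATO total, 14.85 in untreated polysomal and 15.04 in ATO polysomal RNA. Its 2 polysomal values lay on either side of its 2 total values, with differences of -0.17 in untreated and 0.07 in ATO cells.

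**Figure D1:**
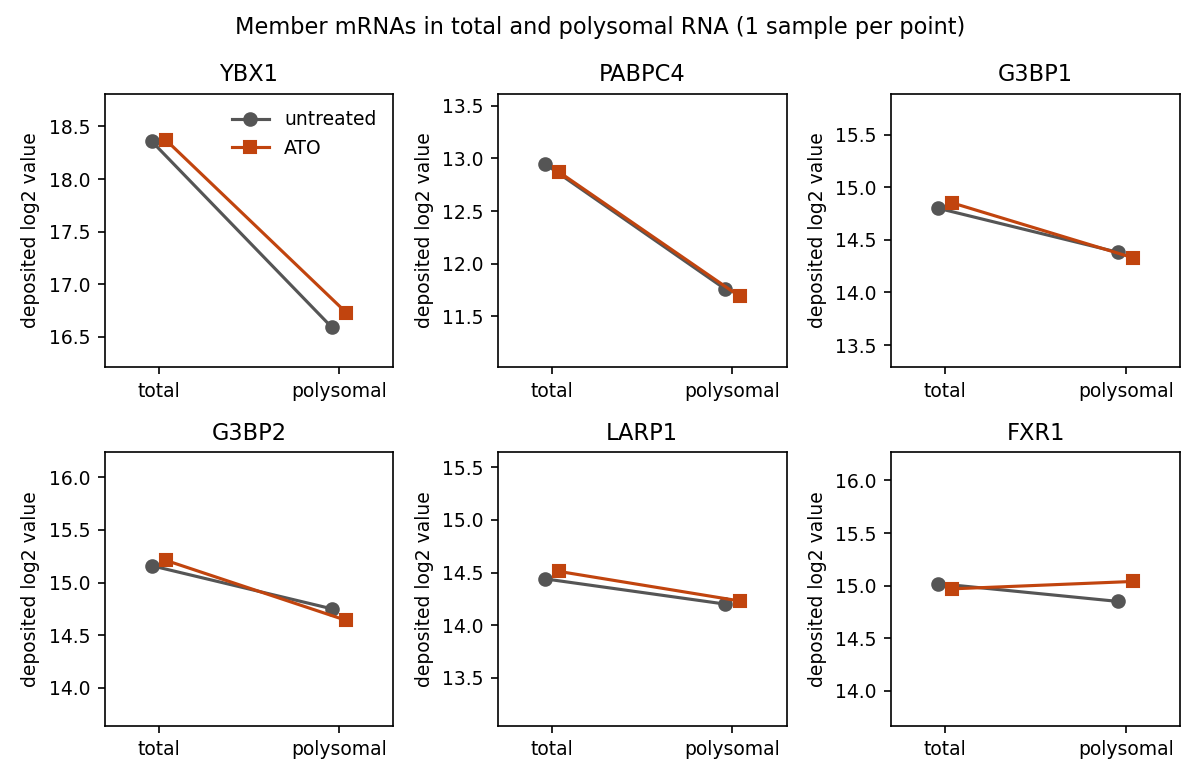
Deposited log2 values of the 6 genes in total and polysomal RNA, 1 panel per gene, with axes spanning the same range of log2 units. Grey circles are untreated and orange squares ATO samples, and lines join the samples of 1 state. YBX1 and PABPC4 fall steeply from total to polysomal RNA in both states, whereas the FXR1 lines are nearly flat.

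Of the 6 genes, 2 (YBX1 and PABPC4) were over 1.5-fold lower in polysomal RNA in untreated cells and the same 2 in ATO cells, where 4.72% and 3.92% of all 3875 genes were. None was over 1.5-fold higher, against 16.2% and 14.7% of all genes. These shares stand for orientation only, since the list was drawn up from this contrast. The 6 genes had a median of -0.42 without and -0.54 with ATO, beside 0.19 and 0.17 over all genes. That shift of the gene median above 0 matters for the smaller differences: relative to it, G3BP1 stood at -0.61 and -0.69, G3BP2 at -0.60 and -0.74, LARP1 at -0.43 and -0.45, and FXR1 at -0.36 and -0.10. With each sample centred on its median, 4 of the 6 genes were therefore past 1.5-fold on the low side in each state, where 9.88% and 8.1% of all genes were, and FXR1 was below 0 in both. None was past it on the high side, where 6.04% and 6.27% of all genes were. As deposited, the 6 genes kept the order YBX1, PABPC4, then both G3BP genes, LARP1 and FXR1 in each state. G3BP1 and G3BP2 were only 0.01 and 0.05 apart and changed places. With the mean over both YBX1 probe sets, PABPC4 (-1.19 and -1.18) stood lower than YBX1 (-0.82 and -1.06). Without replicates, neighbours in this order cannot be separated from sample error.

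**Figure D2:**
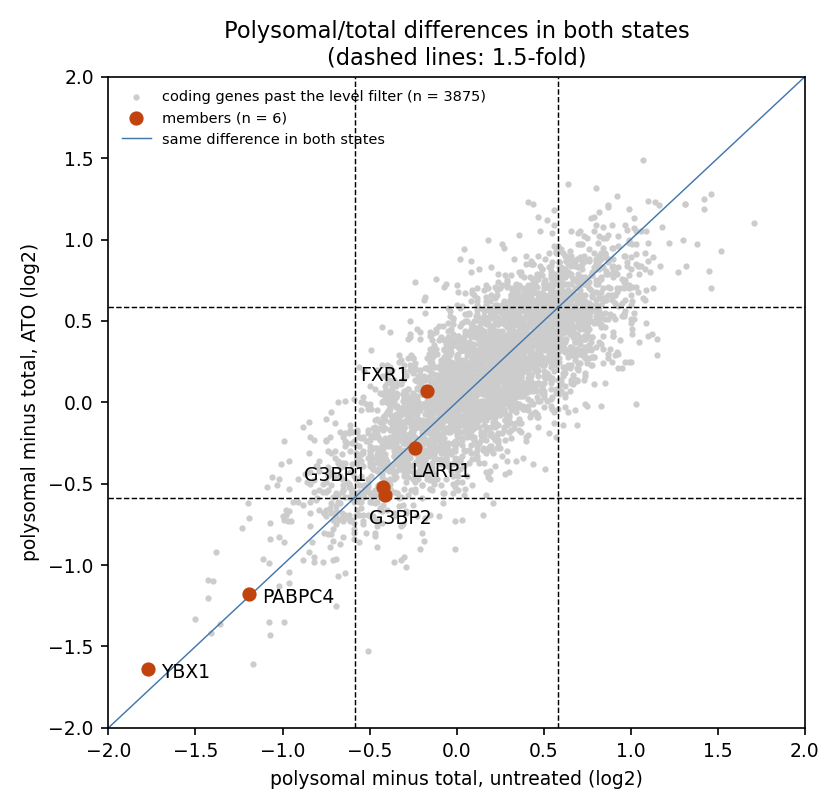
Polysomal minus total log2 difference of each coding gene past the level filter in untreated (horizontal) and ATO cells (vertical), with dashed lines at 1.5-fold and a diagonal where both states are equal. Grey points are 3875 genes and orange points the 6 genes described, with YBX1 at the lower left corner (-1.77, -1.64) and FXR1 (-0.17, 0.07) within the main cloud.

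ATO was then compared with untreated cells within each fraction. The normalization is unknown, so total RNA values do not give absolute abundance. The total RNA values of the 6 genes differed little between the states. In total RNA the differences ran from -0.08 (PABPC4) to 0.07 (LARP1), with YBX1 at 0.01, both G3BP genes at 0.05 and FXR1 at -0.05. In polysomal RNA they ran from -0.11 (G3BP2) to 0.19 (FXR1), with YBX1 at 0.14, LARP1 at 0.03, G3BP1 at -0.05 and PABPC4 at -0.07. The mean over both YBX1 probe sets turned the YBX1 value to -0.17. None of the 6 passed 1.5-fold in total RNA, where 0.103% of all genes were higher and 0.361% lower, or in polysomal RNA, where 0.258% were higher and 0.877% lower. A count of 0 among 6 genes is near those shares and is no result about these genes.

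The polysomal/total ratio itself differed between ATO and untreated cells by at most 0.24 on the log2 scale. FXR1 stood highest, with its ratio 1.18-fold higher in ATO cells (0.24), followed by YBX1 (0.13) and PABPC4 (0.01), but YBX1 became the lowest (-0.24) with the mean over its probe sets. LARP1 (-0.04), G3BP1 (-0.10) and G3BP2 (-0.16) were on the other side, G3BP2 being 1.12-fold lower. Of all genes 81.9% had a lower value than FXR1 and 25.8% a lower value than G3BP2, so both lay within the body of the distribution. None of the 6 passed 1.5-fold, which 1.6% of all genes did upwards and 2.01% downwards. The ratio comparison shares its samples with the comparisons above.

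Several of these genes have processed pseudogenes, near-copies of the mRNA elsewhere in the genome, some of which have probe sets of their own. There were 15 such probe sets, of YBX1 (6), PABPC1 (5), SERBP1 (3) and LARP1 (1), and 4 of them passed the level of the filter. YBX1P2, on chromosome 7, read 11.20 in untreated total, 11.42 in ATO total, 9.44 in untreated polysomal and 9.80 in ATO polysomal RNA. Its differences of -1.76 and -1.62 were within 0.02 of those of YBX1 itself. PABPC1P1, on chromosome 4, stood at -1.42 and -1.67, against -2.60 and -2.36 for the probe set shared by PABPC1 and MIR7705. SERBP1P5 (-0.50 in untreated and -0.05 in ATO cells) and SERBP1P3 (-0.31 and -0.13) were nearer to 0. The other 11 pseudogene probe sets were dim. Probes of a gene and its near-copies can bind the same RNA, so the readings of YBX1 and YBX1P2 cannot be told apart as separate transcripts, and the probe sequences were not compared here. A second YBX1 probe set without a gene identifier was dim, at 5.37 in untreated total, 5.51 in ATO total, 5.50 in untreated polysomal and 5.03 in ATO polysomal RNA, and gave 0.13 and -0.48.

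**Figure D3:**
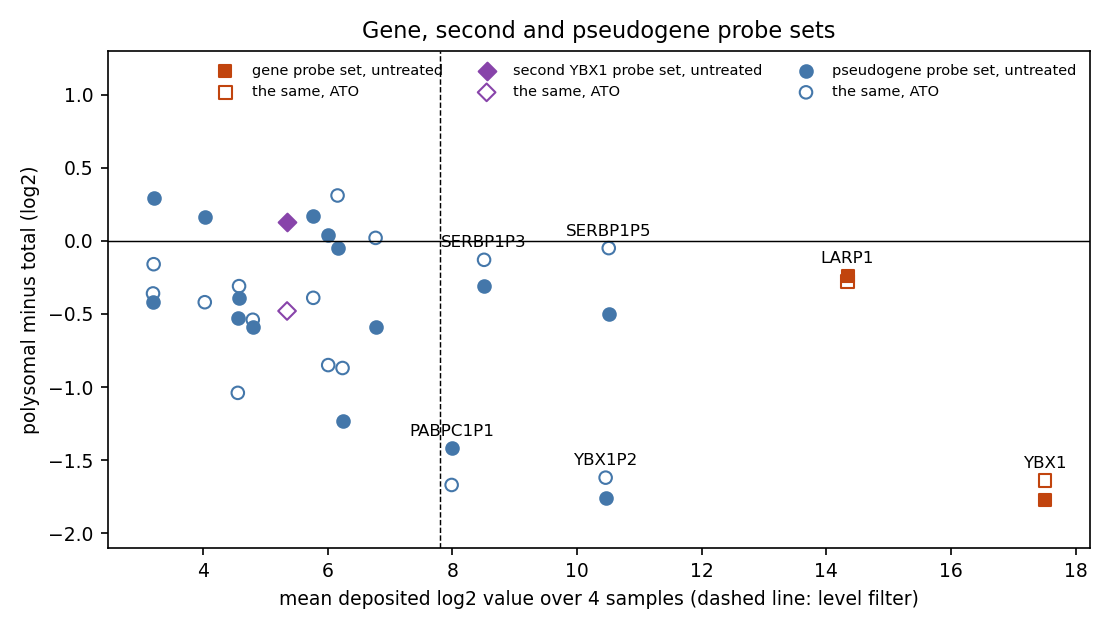
Polysomal minus total log2 difference (vertical) against mean log2 value (horizontal) for the probe sets of YBX1 and LARP1, the second YBX1 probe set and 15 pseudogene probe sets, filled for untreated and open for ATO cells. The dashed line marks the level filter at 7.8, and YBX1P2 lies at the same height as YBX1.

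Other genes with related functions were taken from 4 lists of 150 genes in all, of which 66 were read and 51 passed the filter. Over those 51 genes the median difference was 0.05 without and -0.07 with ATO. In untreated and ATO cells, respectively, 6 and 7 of them were over 1.5-fold higher (16.2% and 14.7% of all genes) and 5 and 3 over 1.5-fold lower (4.72% and 3.92%). With centred samples 1 and 3 were higher and 9 and 9 lower, and the balance of all genes turned likewise, to 6.04% and 6.27% higher and 9.88% and 8.1% lower. The counts of each list are therefore given on both scales. Named values in brackets give untreated cells first and ATO cells second.

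Those genes of poly(A) tail control and deadenylation that passed as deposited were higher, as were most of all genes that passed. Of 14 genes, 4 were over 1.5-fold higher in each state (16.2% and 14.7% of all genes) and 0 lower (4.72% and 3.92%). The medians were 0.20 and 0.15, beside 0.19 and 0.17 over all genes. With centred samples 1 was higher and 0 lower in untreated cells, and 2 were higher and 2 lower in ATO cells. Over all genes 6.04% and 6.27% were then higher and 9.88% and 8.1% lower. CNOT9, a subunit of the CCR4-NOT deadenylase complex, was highest at 1.22 in untreated and 0.98 in ATO cells. The deadenylase subunit CNOT6 (0.64, 0.88) and PAIP2, an inhibitor of poly(A)-binding protein (0.72, 0.64), passed 1.5-fold in both states, the complex subunit CNOT11 (0.62, 0.55) in untreated cells, and CNOT7 (0.49, 0.65), named after its values were seen, in ATO cells. On the low side, CNOT4 (-0.38, -0.50), the complex subunit CNOT10 (-0.29, -0.49), the poly(A) polymerase PAPOLG (-0.11, -0.12) and TENT5A (-0.30, -0.38) did not pass as deposited. CNOT4 and CNOT10 were the 2 that passed on the low side in ATO cells with centred samples. PABPC4L, a paralog of PABPC4, was below the filter.

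Of genes of decapping, microRNA effector and decay proteins, those that passed as deposited were again higher, as were most of all genes that passed. Of 11 genes, 2 in untreated and 3 in ATO cells were over 1.5-fold higher (16.2% and 14.7% of all genes). None was lower, against 4.72% and 3.92% of all genes. The medians were 0.19 and 0.16, again near those of all genes. With centred samples 1 gene was lower and 0 higher without ATO, and 1 was higher and 0 lower with it. That lower gene was XRN1 (-0.44, 0.06 as deposited), named after its values were seen. Over all genes 6.04% and 6.27% were then higher and 9.88% and 8.1% lower. SMG5, of nonsense-mediated decay, stood at 0.77 and 1.13. The decapping enzyme DCP2 stood at 0.71 and 0.38, LSM1, of the decapping activator ring, at 0.46 and 0.62, and the Argonaute gene AGO1 at 0.39 and 0.63.

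Few genes of the list of stress granule proteins and the FMRP family passed, and those that did were lower. FMR1 and FXR2 were not read, so the counts of this list hold no FMRP family gene. Of 9 genes, 2 in untreated and 1 in ATO cells were over 1.5-fold lower (4.72% and 3.92% of all genes). None was higher, against 16.2% and 14.7% of all genes. The medians were -0.26 and -0.09, beside 0.19 and 0.17 over all genes. With centred samples 2 and 3 were lower (9.88% and 8.1% of all genes) and 0 higher (6.04% and 6.27%). UBAP2L, a G3BP1 partner in stress granule assembly, stood at -0.72 and -0.62, and the zinc finger antiviral protein gene ZC3HAV1 at -0.77 and -0.55. The RNA helicase DDX1 (-0.38, -0.53), PRRC2A (-0.22, -0.33) and, on the high side, the RNA-dependent kinase PKR gene EIF2AK2 (0.23, 0.23) did not pass.

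The remaining 17 genes came from the list of cold shock, La-related and other mRNA-binding proteins. None of them was a cold shock gene: LIN28A and LIN28B were below the filter, and YBX2, YBX3, CARHSP1 and CSDC2 were not read. The medians of the 17 genes were -0.15 and -0.12, beside 0.19 and 0.17 over all genes. Over 1.5-fold lower were 3 in untreated and 2 in ATO cells (4.72% and 3.92% of all genes). None was higher, against 16.2% and 14.7% of all genes. Nucleolin, NCL (-0.72, -0.68), and the heterogeneous nuclear ribonucleoprotein gene SYNCRIP (-0.73, -0.65) passed in both states, and PCBP1 (-0.73, -0.21), named after its values were seen, in untreated cells. With centred samples 6 and 4 were lower (9.88% and 8.1% of all genes) and 0 higher (6.04% and 6.27%). KHDRBS1, which encodes Sam68 (-0.53, -0.56), and SSB, the La protein (-0.45, -0.57), stood just short of 1.5-fold. On the high side were LARP7, a La-related protein that binds 7SK (0.38, 0.31), QKI (0.23, 0.21), CPEB2 (0.21, 0.20) and IGF2BP2 (0.08, 0.07), none past 1.5-fold. No gene of the 4 lists passed 1.5-fold in the ratio between ATO and untreated cells. Of all genes 1.6% did so upwards and 2.01% downwards. A count of 0 among 51 genes is near those shares and is no result about these genes. With no test, none of these medians or counts is shown to set a list apart from other genes.

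**Figure D4:**
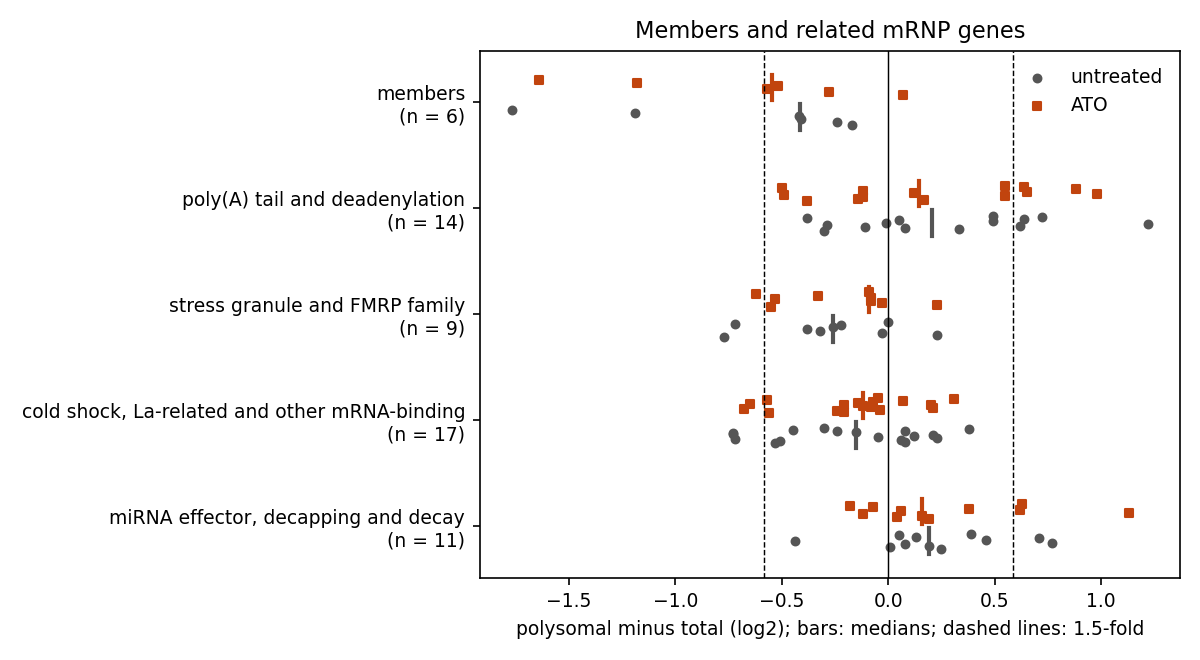
Polysomal minus total log2 differences (horizontal) of the 6 genes and of 4 lists of related genes past the level filter, with grey circles for untreated and orange squares for ATO cells. Short bars are medians and dashed lines 1.5-fold. Points of the deadenylation and decay lists reach past the line on the right, and those of both lists of mRNA-binding proteins past the line on the left.

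Genes with the most similar pattern were sought by the Euclidean distance between profiles over the 4 samples, each gene centred on its own mean. For YBX1 the 5 nearest were KANSL1L (distance 0.29), ARPC1A (0.38), LMNA (0.39), SAP130 (0.42) and PALS2 (0.43), and PABPC4 was ninth nearest at 0.54. For PABPC4 they were UBE2D4 (0.13), THRAP3 (0.17), ARPC1A (0.18), BCL6 (0.19) and TCAF1 (0.20). For G3BP1 the 3 nearest were ENPP2 (0.03), HADHB and RPS27 (0.04 each), and for G3BP2 they were HADHB (0.01), SP110 (0.04) and G3BP1 (0.05). For LARP1 they were LUZP1 and ZNF644 (0.04 each) and DCAF13 (0.05), and for FXR1 FRS3 (0.02), NOL10 and ITPR3 (0.03 each). With 4 samples, mid-range profiles have many such neighbours. The distances are built from the same values as the polysomal/total differences by which the list was chosen. For YBX1 and PABPC4, both near the bottom of that contrast, the neighbours are therefore a description only.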

How the data were processed

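RNA of 4 samples was profiled on Affymetrix arrays from biotin-labelled single-stranded cDNA, per the labels' protocols. The authors deposited log2 values, made with Affymetrix Expression Console per the submitters' processing notes. The sources used here give no version, summary method, normalization or genome build. Values were used as deposited, with no detection calls, on chromosomes 1 to 8 and 1722 probe sets of chromosome 9; others were not analysed here. The platform annotation gave 16127 probe sets 1 symbol, 419 several and 48982 none. Coding genes were typed through the RefSeq table of GRCh38.p14, and each was read from its probe set of highest mean. The filter was the median of those means. Differences of log2 values were formed and counted past 1.5-fold, as in the series' design text. No test was made, since groups hold 1 sample each and the genes were chosen on the polysomal/total contrast that a fit over both states would test. Precision is limited by the number of arrays. Sequences are from RefSeq (GRCh38.p14).

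The genes described and the lists were chosen with earlier results of these data known. Named genes were all those described, the 5 (YBX1, PABPC4) or 3 nearest profiles, pseudogene probe sets, and up to 4 genes per list and direction of the same sign in both states. Alternatives were median centring, quantile normalization, dropping the filter or raising it to the 75th percentile, adding 32 on the linear scale, the mean over probe sets, a 2-fold threshold, all genes with 1 symbol, and subtraction of a loess trend (span 0.3). The counting code was tested on simulated data with set differences, which does not measure the error of these samples. Python 3.11.15, pandas 2.3.3 and statsmodels 0.14.6 were used.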

Additional observations from a re-analysis of the deposited data

Results flagged for a closer look

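Differences of opposite sign in the compared states or fractions were found for 3 of the 6 genes, and none of these contrasts was tested. FXR1 had a polysomal/total difference of -0.17 in untreated and 0.07 in ATO cells, and an ATO difference of -0.05 in total and 0.19 in polysomal RNA. Relative to the gene median its polysomal/total differences were -0.36 and -0.10, so the opposite signs of that pair depend on the scaling. G3BP1 had an ATO difference of 0.05 in total and -0.05 in polysomal RNA. G3BP2 had 0.05 and -0.11.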

How the results depend on the processing

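No paired test was made, since each group holds 1 sample. The untreated and ATO states were not taken as pairs for the polysomal/total contrast, on which the genes were chosen. YBX1 and PABPC4 were past 1.5-fold on the low side in both states under all 9 alternatives, and past the 2-fold threshold. YBX1 ranged from -1.96 to -0.82 in untreated and from -1.81 to -1.06 in ATO cells, the smaller values coming from the mean over both YBX1 probe sets, which also turned its ATO difference in polysomal RNA to -0.17 and its ratio difference to -0.24. Among all genes with 1 symbol, noncoding RNAs included, YBX1 ranked 70 and 84 from the lowest. The number of genes described that were past 1.5-fold on the low side rose from 2 to 4 with centred samples and after the loess subtraction in both states, and with quantile normalization in ATO cells, through G3BP1 and G3BP2.

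Among the 51 related genes past the filter, those higher in untreated cells (6) became 1 with centring, after the loess subtraction and at 2-fold. In ATO cells they (7) became 3 with centring and after the loess subtraction, 4 with quantile normalization and 1 at 2-fold. Those lower in untreated cells (5) became 9 with centring, 8 after the loess subtraction and 0 at 2-fold. In ATO cells they (3) became 9 with centring, 10 after the loess subtraction, 6 with quantile normalization and 0 at 2-fold. The counts over all genes, given below, moved in the same direction under each of these settings, so these moves are no trait of the lists. Without the filter, 1 related gene (TUT4, named after its values were seen) passed on the low side in the ratio difference, against 0.

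Over all genes, centring gave 234 higher and 383 lower in untreated cells (629 and 183 as deposited) and 243 and 314 in ATO cells (570 and 152). The loess subtraction gave 251 and 361, and 222 and 319; the filter at the 75th percentile, with 1939 genes left, 348 and 92, and 320 and 80. Quantile normalization gave 510 and 218, and 459 and 193. At 2-fold there were 58 and 26, and 50 and 20. With all genes of 1 symbol 374 and 334 were lower. Without the filter, genes past 1.5-fold with ATO numbered 71 higher and 83 lower in total RNA (4 and 14 with it), 64 and 115 in polysomal RNA (10 and 34), and 305 and 311 in the ratio (62 and 78). The normalization is unknown, so the overall amount of polysomal RNA cannot be measured.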

Other observations

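Ribosomal protein genes, the main TOP class that LARP1 is known to bind, were read as a neighbouring group of 24 genes past the filter. Their median polysomal/total difference was -0.30 in untreated and -0.14 in ATO cells, with 3 genes in each state over 1.5-fold lower (4.72% and 3.92% of all genes) and 0 higher (16.2% and 14.7%). With centred samples 9 and 7 were lower (9.88% and 8.1% of all genes) and 0 higher (6.04% and 6.27%). In the ratio between ATO and untreated cells 18 of the 24 were above 0, with a median of 0.14, beside 49.6% of all genes above 0 and a median of 0. LARP1 itself stood at -0.04.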
